A study of Caenorhabditis elegans with 2 samples.

Results

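The translation initiation and elongation factor genes of Caenorhabditis elegans were examined for peaks of the POU homeodomain transcription factor CEH-18. They comprised 40 of the 19973 nuclear protein-coding genes of the Ensembl WBcel235 annotation, and were taken by gene name (eif-, eef-, ife-, iff-, ifg- or inf-). The rule itself uses no measured value, but these names were proposed with earlier results of these data known. Factors with names of another form, such as eIF3a (egl-45), were not counted. CEH-18 is known for its roles in the gonadal sheath, in oocyte maturation and in the epidermis.

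The study profiled chromatin by immunoprecipitation and sequencing (ChIP-seq) in 1 group of 2 biological replicates, so it held no comparison between conditions. Both replicates were whole hermaphrodite embryos at a late stage, collected 3 h after synchronisation by egg bleaching. The strain OP533 carries the mutation unc-119(tm4063) on III and the integrated transgene wgIs533, which expresses CEH-18 with a C-terminal tag of green fluorescent protein (GFP) and FLAG. The sources used here do not give the promoter that drives the transgene. The method text names an antibody against GFP and the antibody field names ceh-18. Whole embryos were used, so a peak cannot be placed in a tissue. Nothing beyond the word biological says that the replicates came from separate cultures.

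The files list peaks, not reads, and the sequencing depth is unknown. The list thresholded by the irreproducible discovery rate (IDR, a measure of agreement between replicates) held 2575 peaks on the ce11 build. The list from both replicates pooled, which also holds weak peaks and background, had 28466 peaks. Replicate 1 had 30000 and replicate 2 had 21337. Signal means the peak signal value deposited by the authors, whose scale is not stated. It was compared within a list, or between the replicates after scaling to the median of each list. The lowest signal was 114 in the thresholded list and 23 in the pooled list.

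Translation begins when eIF2 brings the initiator tRNA to the small ribosomal subunit. The eIF4 factors bind the mRNA cap and unwind the leader, eIF3 acts as a scaffold, and eIF1 and eIF1A guide start codon selection. In elongation, eEF1A delivers aminoacyl-tRNA, the eEF1B complex recharges eEF1A with GTP, eEF2 moves the ribosome along the mRNA and eIF5A helps at sequences where peptide bonds form slowly. Most of these factors are made in all cells, while some worm genes occur as pairs or families with different sites of use, such as iff-1 in the germ line and iff-2 in the soma.

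The sequences around the summits show where some of the strongest peaks lay and which short words they held. They are from 6 of the 9 bound genes with the highest signal, read from the WBcel235 assembly (RefSeq copy) on the strand of the gene, and stop before any annotated exon. Capitals mark 2 of the words searched on both strands, GAGAGA and the short POU word ATGCA. The rest of these 9 genes are not shown, and neither word lay within 75 bp of their summits. The printed sequences therefore do not stand for all of the strong peaks. The regions are II:8561368-8561514 (minus strand), X:7823228-7823378 (plus), II:14795068-14795218 (plus), III:6972015-6972165 (minus), V:10965625-10965718 (plus) and X:1103820-1103970 (plus), and the summit is base 76 of each.
iff-2: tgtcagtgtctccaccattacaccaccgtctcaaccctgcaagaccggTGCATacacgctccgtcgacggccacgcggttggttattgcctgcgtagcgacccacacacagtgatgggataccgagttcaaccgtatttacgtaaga
eef-1A.2: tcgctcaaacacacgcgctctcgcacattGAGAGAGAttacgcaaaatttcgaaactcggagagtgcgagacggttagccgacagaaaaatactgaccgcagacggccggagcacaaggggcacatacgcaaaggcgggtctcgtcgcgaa
eif-3.B: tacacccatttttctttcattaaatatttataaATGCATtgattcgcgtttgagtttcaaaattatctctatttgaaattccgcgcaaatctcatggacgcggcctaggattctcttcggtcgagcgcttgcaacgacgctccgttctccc
eef-1A.1: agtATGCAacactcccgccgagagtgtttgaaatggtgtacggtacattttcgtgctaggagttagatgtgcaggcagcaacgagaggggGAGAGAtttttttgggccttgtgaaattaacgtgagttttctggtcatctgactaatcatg
eef-1G: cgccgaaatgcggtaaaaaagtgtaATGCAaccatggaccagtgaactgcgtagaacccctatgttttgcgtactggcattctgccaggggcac
ife-4: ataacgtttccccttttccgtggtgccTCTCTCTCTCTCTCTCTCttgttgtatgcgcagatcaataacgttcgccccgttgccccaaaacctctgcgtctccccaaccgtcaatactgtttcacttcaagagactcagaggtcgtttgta

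Of the 40 genes, 13 (32.5%, 95% exact binomial interval 18.6% to 49.1%) had a thresholded summit in the promoter window, against 1425 of the 19933 other protein-coding genes (7.15%). The window ran from 1000 bp upstream to 200 bp downstream of the annotated 5′ end, and a gene with a summit there is called bound below. Over all 19973 genes the share was 7.20%. The share among translation factor genes was 4.55 times that among other genes. Each bound gene had 1 summit. Because of how the names were proposed, no p-value is given for this difference. The interval covers counting error only and treats genes as independent.

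Elongation factors were bound most often. They had 6 of 8 genes bound (75%, interval 34.9% to 96.8%), against 6 of 27 initiation factors (22.2%, 8.62% to 42.3%) and 1 of 5 cap-binding eIF4E genes (20%, 0.505% to 71.6%). The classes were drawn by name. The eIF5A genes iff-1 and iff-2 were counted with elongation, and the eIF4E genes were kept apart from initiation. The eEF genes without eIF5A had 5 of 6 bound. The difference between these classes was not tested, and it depends on summits shared with a neighbour. Without summits that also lay in another gene's window, eef-1A.2 was the only elongation factor gene still bound. The initiation factor genes eif-3.B, eif-3.C and eif-2Bgamma and the eIF4E gene ife-4 also stayed bound. Elongation factors were then no longer the class bound most often. Among other translation genes, ribosomal protein genes had 50 of 81 bound (61.7%, interval 50.3% to 72.3%). Aminoacyl-tRNA synthetase genes had 4 of 32 (12.5%, 3.51% to 29%). The list of termination, ribosome recycling, poly(A)-binding, mitochondrial elongation and regulatory genes had 4 of 19 bound (21.1%, 6.05% to 45.6%). The intervals of this list and of the synthetase genes include the 7.20% of all genes. The 4 bound genes were ifet-1, which encodes a repressor that binds eIF4E (signal 506), the RNA-binding protein gene larp-1 (461), the poly(A)-binding protein gene pab-2 (217) and the release factor gene erfa-3 (177).

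**Figure D1:**
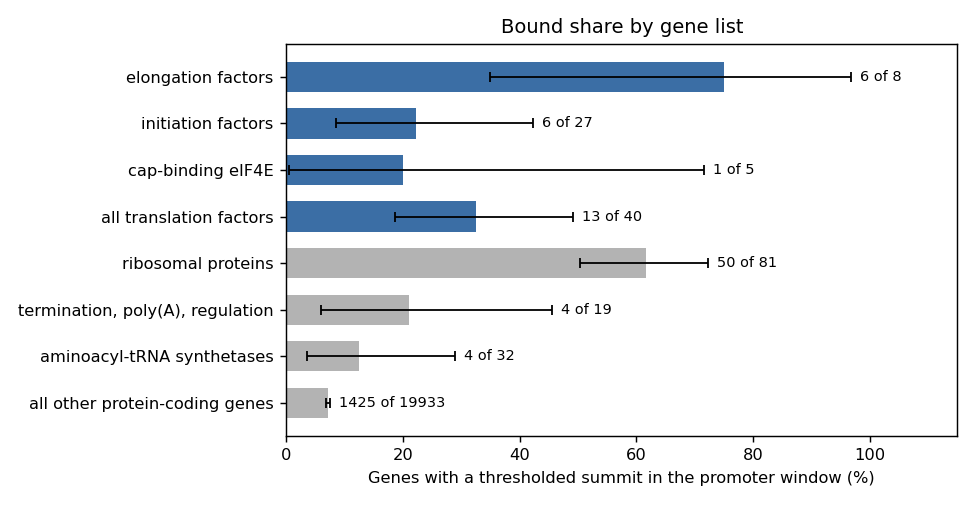
Share of genes with a thresholded summit in the promoter window, in percent, for translation factor classes (blue) and other gene lists (grey), with exact 95% binomial intervals as bars and counts beside them. Elongation factors (6 of 8) and ribosomal proteins (50 of 81) lie above initiation factors (6 of 27) and all other genes (1425 of 19933).

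In the pooled list, 31 of the 40 genes (77.5%) had a summit in the window, against 6989 of the 19933 other genes (35.1%). The share over all genes was also 35.1%. All 8 elongation factor genes had one, as did 21 of 27 initiation factor genes and 2 of 5 eIF4E genes. With genes that had no summit placed below the rest, the median of the highest signal over the 40 genes was 70.1. Of the other genes, 12.9% reached that value. The pooled list also holds background, so a summit in it need not be a significant peak. For the 18 members with a pooled but no thresholded summit, the deposited -log10 q ranged from 0.0387 (eif-2alpha) to 2.98 (eif-1).

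**Figure D2:**
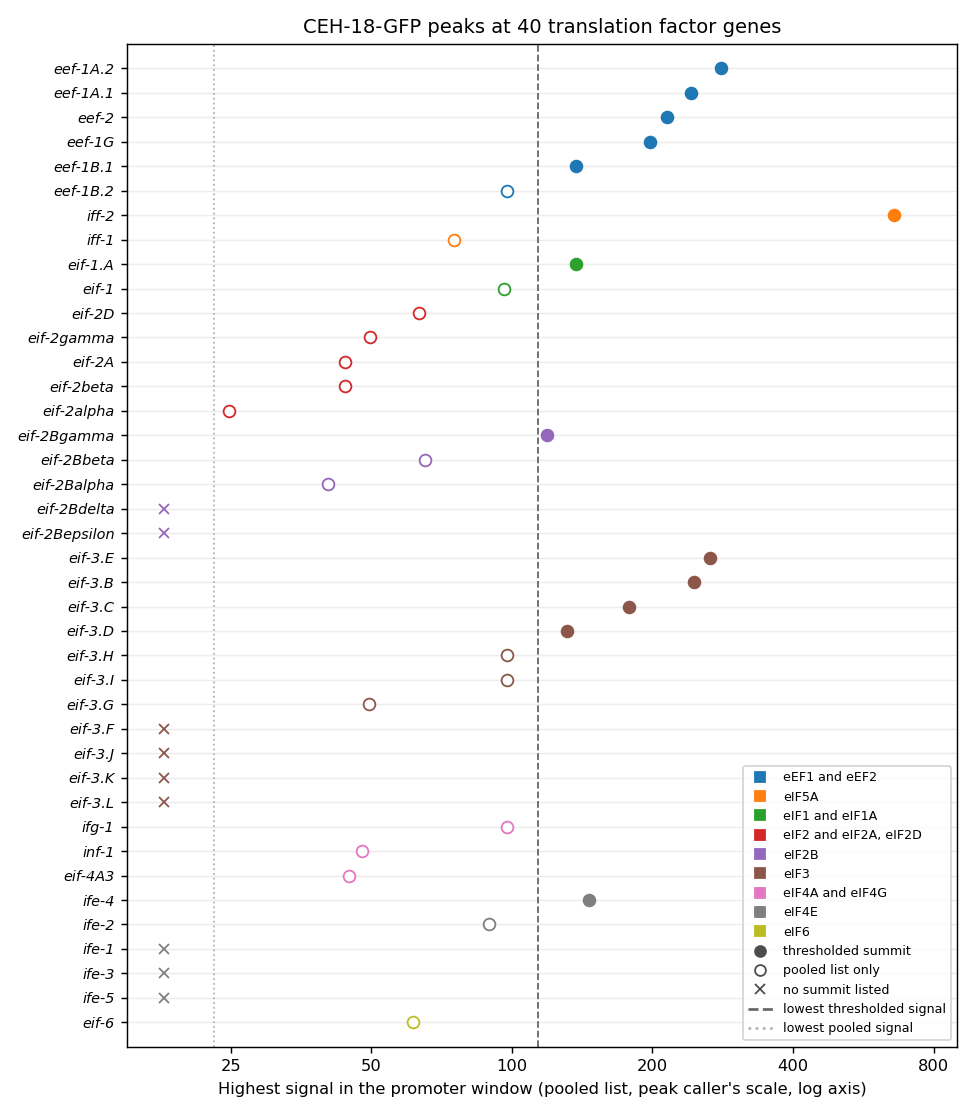
Highest signal of a pooled-list summit in the promoter window of each of the 40 genes (log axis, as deposited by the authors), grouped by factor. Filled points are thresholded peaks, open points are peaks of the pooled list only, and crosses are the 9 genes with no summit listed. The iff-2 peak stands apart at 658, and 5 open points lie together between 96.1 and 97.6, below the lowest thresholded signal of 114.

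The strongest peak was at iff-2, and its paralogue iff-1 had no thresholded peak. Both encode eIF5A. The iff-2 peak covered II:8561275-8561629, and its summit was intergenic, 72 bp upstream of the annotated start. Its signal was 658, rank 16 of 2575, with 326 in replicate 1 (rank 18) and 332 in replicate 2 (rank 22). The highest summit in the iff-1 window, 180 bp upstream, reached 75 in the pooled list (replicate 1, 26.8, and replicate 2, 57.3). The iff-2 signal was 8.77 times that of iff-1 in the pooled list and the higher of the pair in both replicates.

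Both eEF1A genes were bound at similar signals. At eef-1A.2 the peak X:7823220-7823450 reached 281, with 125 in replicate 1 and 161 in replicate 2, and its summit lay 351 bp upstream. At eef-1A.1 the peak III:6972007-6972233 reached 242, with 89.3 in replicate 1 and 149 in replicate 2, and its summit lay 378 bp upstream. The eef-1A.1 summit was closer to rfc-4, a clamp loader gene of DNA replication, whose 5′ end was 163 bp away. The coding sequences of this pair are closely alike. In the summit windows printed above, all of the 6 words of 25 bases tested at each gene occurred once in the genome.

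The eEF1B genes differed in their calls. At eef-1G, which encodes the gamma subunit, the peak V:10965587-10965772 had a signal of 198 and a summit 19 bp upstream. The replicate signals were 84.9 and 117. At eef-1B.1 the peak III:7973196-7973679 had a signal of 137 (64.6 and 78.9 in replicates 1 and 2), 52 bp upstream. The remaining gene of this complex, eef-1B.2, had a summit 122 bp upstream with a signal of 97.6 in the pooled list only (39.5 and 58.2 in replicates 1 and 2). It ranked 3247 in that list, where the thresholded peaks are the first 2575.

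The eEF2 gene eef-2 had its summit closest to the 5′ end of all bound members, 3 bp downstream and within the annotated 5′ untranslated region. The peak covered I:9163458-9163597 and had a signal of 215, with 77.7 in replicate 1 (rank 1585) and 131 in replicate 2 (rank 538). Thus 5 of the 6 eEF genes were bound, and each of the 6 had a pooled-list signal of at least 97.6.

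Among initiation factors, eIF3 genes supplied 4 of the 6 bound. The bound genes encode the subunits b, c, d and e. At eif-3.E the peak I:10642406-10642571 reached 266 (129 in replicate 1 and 132 in replicate 2), with a summit 189 bp upstream. At eif-3.B the peak II:14795001-14795269 had a signal of 246 (122 and 123), 261 bp upstream. In replicate 1 they ranked 563 and 646 of 30000 peaks, and in replicate 2 they ranked 535 and 626 of 21337. At eif-3.C the peak I:9979802-9979996 had a signal of 178 (66.4 and 106), 227 bp upstream. At eif-3.D the peak III:8971584-8972067 had a signal of 131 (54.8 and 74.8), 248 bp upstream, and its summit lay 66 bp from the 5′ end of R08D7.4.

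The other 7 eIF3 genes were not bound. The summits at eif-3.H (97.6) and eif-3.I (97.4) were in the pooled list only, and eif-3.G had one of 49.4 at 981 bp upstream. No summit of either list lay in the windows of eif-3.F, eif-3.J, eif-3.K and eif-3.L. With the strongest peaks of replicate 2 alone, eif-3.J had a summit in its window. The genes for eIF3a (egl-45) and eIF5B (iffb-1), looked up after the other values were seen, were not bound and had pooled-list signals of 45.5 and 44.8. The eIF3m gene cif-1, looked up in the same way, had no summit in either list.

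Of the eIF2 genes and those of eIF2A and eIF2D, 0 of 5 were bound (exact interval 0% to 52.2%). At the 7.20% of all genes, less than 1 of 5 would be bound, so this count is near the background. The eIF2 complex carries the initiator tRNA. The genes eif-2alpha, eif-2beta and eif-2gamma had pooled-list signals of 24.8, 43.9 and 49.6. The eif-2alpha peak ranked 26169 of 28466 and had no counterpart in replicate 2. The genes eif-2A and eif-2D, whose mammalian counterparts are alternative initiator tRNA factors, had 43.9 and 63.2. So each of these 5 genes had a summit in the pooled list, with a -log10 q from 0.0387 (eif-2alpha) to 1.39 (eif-2D).

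Of the 5 eIF2B genes, which encode the exchange factor that recharges eIF2 with GTP, only eif-2Bgamma was bound, at the lowest signal of the bound members. The exact interval for 1 of 5 (20%) is 0.505% to 71.6%, which includes the 7.20% of all genes. The peak II:6968301-6968784 had a signal of 119, with 57.9 in replicate 1 (rank 2613) and 45.8 in replicate 2 (rank 3742). Its summit lay 895 bp upstream, inside an intron of the upstream gene C15F1.5 and inside the small nuclear RNA (snRNA) gene sup-39 (II:6968394-6968558). It was also inside mir-1831 (II:6968530-6968551), which is annotated as an snRNA gene. This was the only bound member with a tRNA, small nucleolar RNA (snoRNA) or snRNA gene within 200 bp of its summit. Which of these genes the peak belongs to was not tested. Signals at eif-2Bbeta and eif-2Balpha were 65.3 and 40.4 in the pooled list, and eif-2Bdelta and eif-2Bepsilon had no summit.

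Start codon selection factors were split. The eIF1A gene eif-1.A had a peak at IV:4810325-4810808 of signal 137 (replicate 1, 62.8, and replicate 2, 71.6), 367 bp upstream. The eIF1 gene eif-1 had a summit of 96.1 (44.1 and 54.4) in the pooled list only, 399 bp upstream. The single eIF6 gene, eif-6, which keeps ribosomal subunits apart, had 61.4 in the pooled list and no counterpart in replicate 1.

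Of the eIF4 genes, 1 of 5 eIF4E genes (exact interval 0.505% to 71.6%) and 0 of 3 eIF4A and eIF4G genes (0% to 70.8%) were bound. Both intervals include the 7.20% of all genes. The bound gene of the cap-binding eIF4E family was ife-4, with a peak at X:1103653-1104136 of signal 146 (75.4 in replicate 1 and 67.5 in replicate 2). Its summit lay 317 bp upstream. The ife-2 gene had 89.4 in the pooled list only (35 and 60.1), and ife-1, ife-3 and ife-5 had no summit in either list. The scaffold gene ifg-1 (eIF4G) had 97.6 in the pooled list, 676 bp upstream. The helicase gene inf-1 (eIF4A) had 47.7 and eif-4A3, whose human counterpart belongs to the exon junction complex, had 44.8.

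The highest signals among members not bound were close together. The genes ifg-1, eif-3.H, eef-1B.2, eif-3.I and eif-1 had signals from 96.1 to 97.6 in the pooled list, ranks 3244 to 3315, against a lowest thresholded signal of 114 at rank 2575. All of them had a peak in each replicate, with signals of 38.9 to 44.1 in replicate 1 and 52.5 to 58.2 in replicate 2. These were 18.5% of the 27 genes not bound, against 529 of the 18508 other genes not bound (2.86%) with a pooled-list signal of at least 90. That limit was chosen after the values were seen. The authors' thresholded list on the ce10 build held 3485 peaks. With as many of the strongest pooled peaks on ce11, these 5 genes would be bound, giving 18 of 40 (45%), against 9.42% of other genes.

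All 13 bound members had a peak in both replicates. Their summits moved by at most 30 bp from the thresholded summit in 12 of 13 cases in replicate 1 and in 12 of 13 in replicate 2. With signals scaled to the median of the list of each replicate, the log2 ratio of replicate 1 over replicate 2 ranged from -0.55 to 0.54 (mean -0.06, SD 0.35 over the 13 genes). For the other promoter summits, of which 1132 of 1139 had a peak in both replicates, the mean of this ratio was 0.15 (SD 0.44). The median rank of the 13 was 1585 of 30000 peaks in replicate 1 and 688 of 21337 in replicate 2, against 1307 and 1228 for the other promoter summits. The lists differ in length, so ranks in one are not set against ranks in the other. The thresholded list was drawn from both replicates, so its presence in each is not independent evidence.

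**Figure D3:**
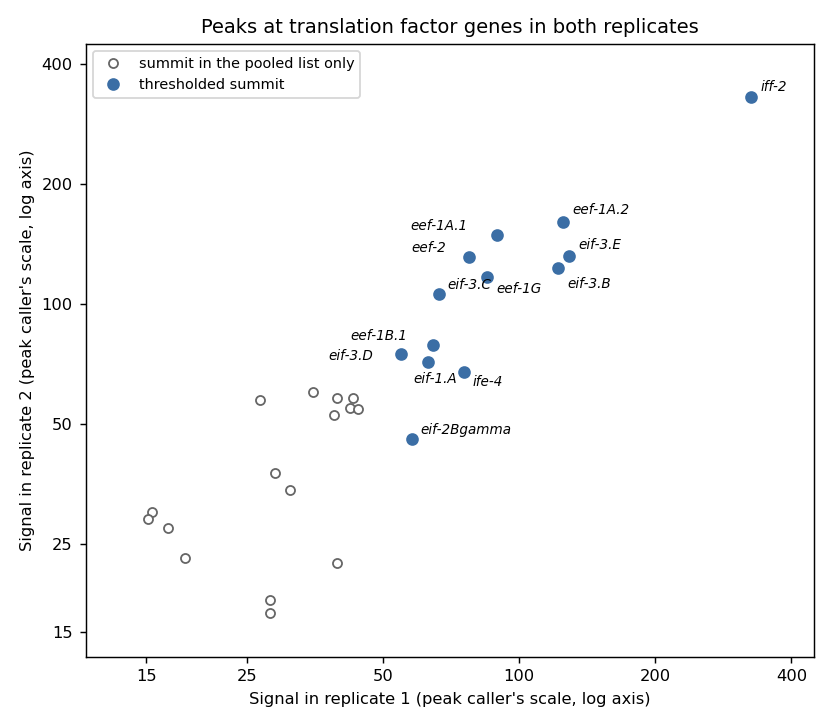
Signal in replicate 1 against signal in replicate 2 (both log axes, as deposited by the authors) for the 13 thresholded peaks (filled, named) and the 16 peaks of the pooled list only that were found in both replicates (open). The iff-2 peak is far from the rest at 326 and 332, and eif-2Bgamma is the lowest filled point in replicate 2 at 45.8.

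The summits at bound members lay close upstream of the 5′ end. Of the 13, 12 were upstream and the same number were within 400 bp, with a median distance of 248 bp. For the 1498 pairs of other genes and summits the median distance was 266 bp and 68.6% were within 400 bp. The distance of 400 bp was chosen after the values were seen. The exception was eif-2Bgamma at 895 bp. The median signal of the 13 summits was 198, against 174 for the summits of other genes. Across bound members signals ranged from 119 to 658, and 8 of the 13 were above the median of all thresholded peaks, 172.

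**Figure D4:**
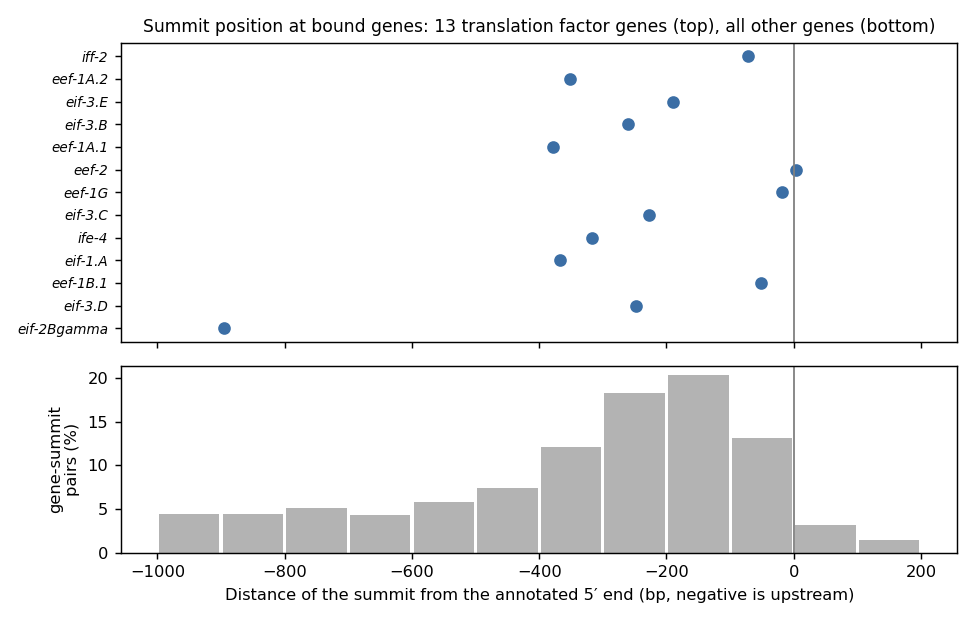
Distance of the summit from the annotated 5′ end in bp (negative is upstream) for the 13 bound translation factor genes in order of signal (top) and as a share of the 1498 gene and summit pairs of all other genes in bins of 100 bp (bottom). At 12 of the 13 genes the summit is within 400 bp, and eif-2Bgamma lies at 895 bp.

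Many of these promoters were shared with a neighbour. At 8 of the 13 bound members (61.5%) the summit also lay in the window of another protein-coding gene, against 45.7% of the pairs of other genes and summits. Besides rfc-4 and R08D7.4, the neighbours were clsp-1 (eef-2), ctf-4 (eef-1G), aco-2, which encodes mitochondrial aconitase (eef-1B.1), F54C9.14 (iff-2), B0511.17 (eif-3.E) and H06H21.37 (eif-1.A). The summit was nearest to the member's own 5′ end in 11 of 13 cases, all but eef-1A.1 and eif-3.D. From these files a peak at a shared promoter cannot be assigned to a single gene. The summits of eef-1A.2, eif-3.B, eif-3.C, ife-4 and eif-2Bgamma were in no other gene's window.

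Worm genes are often grouped in operons, where a downstream gene may lack a promoter of its own. The files hold no operon annotation, so the gap to the next gene upstream on the same strand was used. Such a gene ended within 1000 bp upstream of 13 of the 40 members (32.5%), against 28.9% of other genes. Of these 13 members 3 were bound (ife-4, eif-3.C and eif-2Bgamma), against 10 of the 27 without such a gene (37%). For other genes the shares were 3.98% with and 8.44% without. Among the 9 members with no summit in the pooled list, 6 had such a neighbour: ife-1, ife-3, ife-5, eif-3.F, eif-3.J and eif-3.K. A pooled-list summit was missing at 46.2% of members with such a neighbour and 11.1% of those without, against 70.7% and 62.6% of other genes.

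Short sequence words were counted within 75 bp of the summit on both strands. GAGAGA was present at 3 of the 13 members (23.1%), namely eef-1A.2, eef-1A.1 and ife-4, against 436 of the 1139 other promoter summits (38.3%). At ife-4 it formed an unbroken run of 18 bases of TC repeats, seen in the sequence above. The genes eif-3.E (signal 266), eef-2 (215) and eif-3.C (178), whose sequences are not printed, had neither GAGAGA nor ATGCA within 75 bp of the summit. In whole promoter windows GAGAGA was in 23 of 40 members (57.5%), against 50.9% of other genes, so its presence in a window of that length is common.

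Of the 7 words, the short POU word ATGCA was found at the most member summits within 75 bp (within 100 bp CANNTG was, at 8 of 13). It was present at 5 of the 13 (38.5%), those of iff-2, eif-3.B, eef-1A.1, eef-1G and eef-1B.1, against 256 of 1139 (22.5%). In whole promoter windows it was found at 87.5% of members and 84.5% of other genes. The octamer ATGCAAAT, which contains ATGCA, was at none of the 13 summits, against 14 of 1139 (1.23%), and the homeodomain word TAATTA was at none, against 2.02%. With 13 summits, a share of 1.23% would give less than 1 match. The E-box CANNTG was at 4 summits (30.8%, against 51.4%), the GC box GGGCGG at 2 (15.4%, against 12.6%) and TTTCAG, which resembles the splice acceptor, at 2 (15.4%, against 9.13%). The median GC content of the 13 windows was 47.7%, the same as for other promoter summits, and ranged from 38.4% at eif-3.D to 55% at iff-2 and eef-1A.2.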

How the data were processed

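Peaks were measured by ChIP-seq in 2 replicates of 1 group. The authors deposited narrowPeak lists per replicate, pooled and thresholded by IDR (both replicates together), per the deposited notes. The sources used here name no aligner or peak caller. Column 7, the signal, is the peak signal value deposited by the authors, on an unstated scale. The deposited -log10 q-value of each peak (column 9) was not used for ranking.

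The ce11 lists were analysed with the WBcel235 assembly, the same build, and Ensembl release 115 genes. Of the ce10 thresholded list only the number of peaks was used. Coordinates are 1-based. A summit was assigned to every protein-coding gene whose window held it. A replicate peak matched with an overlap of at least 1 bp, taking the summit nearest to the thresholded one. Summit windows for words were 151 bp. Members, lists and alternatives were chosen with earlier results of these data known, and no test was made. All members were named, and of other genes those sharing a summit with one or bound in the termination and regulation list. Of the 20 names searched for that list, 1 (eefk-1) was not found among the protein-coding genes. Gene assignment and the word search were tested on simulated data. Alternatives were other windows, the nearest 5′ end, stricter and looser peak sets, single replicates, all transcript 5′ ends and filters on neighbours. The software was Python 3.11.15 with pandas 2.3.3, numpy 2.4.6, matplotlib 3.10.9 and scipy 1.17.1.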

Additional observations from a re-analysis of the deposited data

How the results depend on the processing

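The bound share of translation factor genes was above that of other genes in all 12 alternatives. It was 30% with a window of 500 bp upstream to 100 bp downstream (5.45% of other genes) and 35% with 2000 bp to 500 bp (10.1%), where ife-3 was added. It was 30% by the nearest 5′ end (10.4%), with eif-3.I added and eef-1A.1 and eif-3.D lost, and 20% with only peaks above the median signal (3.75%). Among those peaks no eIF4E gene was bound (0% of 5). With all pooled peaks the share was 77.5% (35.1%), with 77.8% for initiation and 100% for elongation factors. When summits in windows of several genes were left out it was 12.5% (3.84%), with 5 genes bound, since 8 of the 13 share their summit. Among elongation factors only eef-1A.2 was bound in that setting, so the high share of that class did not hold there. With the strongest peaks of 1 replicate alone the share of all 40 genes ranged from 30% to 35%. It was 18.5% to 22.2% for initiation, 20% to 40% for cap binding and 75% for elongation factors. The median rank of the 13 summits ranged from 688 to 1585 in single replicates. In replicate 2 alone, eif-3.J and ife-2 were bound and eif-2Bgamma was not, and in replicate 1 alone eif-3.D was not. In replicate 1 alone eif-2Bgamma was bound by a peak other than its matched one, which ranked 2613, outside the 2575 strongest used. CANNTG was at 61.5% of summits within 100 bp, where other promoter summits had 59.3%. The bound share of translation factor genes was 35% with the 5′ ends of all transcripts (7.96% of other genes). It was 30% without summits near small RNA genes (6.8%) and 37% among genes with no close upstream gene (8.44%). The looser set of 3485 peaks was chosen after seeing the data. No paired analysis was possible because the study has 1 group. Depth is unknown, so a missing peak cannot be told from one below detection, and the counts of 13 summits limit the word shares.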

Other observations

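Some members without a thresholded summit in the window had one nearby. For 7 of the 27 (25.9%) it lay within 5000 bp of the 5′ end, against 2747 of the 18508 other genes not bound (14.8%). The limit was chosen after the values were seen and the difference was not tested. The closest was at ife-3, 1072 bp upstream with a signal of 281, just outside the window. Next were eif-6 (2020 bp upstream, signal 169), eif-3.I (2048 bp downstream, 123), eef-1B.2 (2433 bp downstream, 166), iff-1 (2572 bp downstream, 117), eif-2Balpha (3049 bp downstream, 189) and eif-2beta (4042 bp downstream, 161). For the other 20 the nearest thresholded summit was farther, up to 81863 bp at eif-2Bepsilon, and the median over the 27 was 17329 bp, against 19902 bp for the other genes not bound.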
